A study of Rattus norvegicus with 18 samples.

Results

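The genes described here are 8 genes of the blood vessel wall, 4 of smooth muscle (Tagln, Acta2, Mylk and Tpm1) and 4 of endothelium (Cldn5, Flt1, Kdr and Pecam1). Their members are all probe sets whose gene symbol in the platform annotation is 1 of these 8, whatever their values, and a probe set is the group of short probes by which the array reads a transcript. The 8 genes, of 10412 that the array names, had 15 probe sets of the 15923 in the table. Of these, 10 had a mean signal high enough to be tested (mean log2 signal over 7.459, a signal of 176) and 5 did not. The untested ones were the single probe set of Pecam1, 2 of the 3 probe sets of Flt1 and 2 of the 6 probe sets of Tpm1. A further 3 probe sets carried the names Acta2 and Actc1 together and were not used, since their signal cannot be given to either gene.

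The series measured rat oculomotor nucleus, the midbrain motor nucleus of the eye muscles, and spinal cord at 6, 18 and 30 months of age. The groups were oculomotor nucleus at 6, 18 and 30 months and spinal cord at 6, 18 and 30 months, with 3 Affymetrix RA230 arrays in each and 18 in all. Each array carried RNA combined from 4 animals, so the p-values measure the spread between pooled samples and not between animals. The rats were given no treatment that the labels name, some labels give their strain as F344BN, and the design text takes 6 months as the baseline of the ages.

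Vascular smooth muscle surrounds arteries and arterioles and contracts when calcium-bound calmodulin activates myosin light chain kinase, which phosphorylates myosin so that it can pull on actin filaments lined with tropomyosin. Endothelial cells line the lumen, and in the brain and spinal cord their claudin-sealed tight junctions form the blood-brain and blood-spinal cord barriers. VEGF, the growth factor that keeps endothelium alive and makes vessels sprout, is read by the receptors FLT1 and KDR, of which KDR carries most of the signal and FLT1 largely acts as a trap for the ligand.

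The arrays read most of the defining markers of endothelium, and those of smooth muscle less fully. For endothelium, 11 of 13 markers had a probe set with a gene name of its own, Cdh5 and Tek being those without. All of the 11 but Pecam1 passed the filter. All 11 smooth muscle markers had one, but Actg2 lay under the floor of 66.4 on 9 of 9 oculomotor and 6 of 9 cord arrays and Cnn1 on 7 and 6 of them, and Des, Lmod1 and Smtn were also too dim to test. Tagln and Myl9 passed the filter, but their mean signals in the oculomotor nucleus, 88.2 and 154, were under the filter signal of 176. Arrays stood apart in 2 ways. The skeletal muscle actin gene Acta1 gave 2007 and 3631 on cord replicates 1 and 2 at 6 months, and 1529 on the second 18-month cord array, against 231 to 503.5 on the other 15. Apart from that, oculomotor replicate 3 at 30 months and cord replicates 1 at 6 months, 3 at 18 months and 3 at 30 months deviated together from their groups, with scores of -16.6 to -12.1 on a component that held 27.1% of the within-group variance. Results that rest on these arrays are given below with and without them.

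The promoters shown are those of the genes that were lower in the oculomotor nucleus and have an entry in the promoter table, Acta2, Mylk, Tpm1, Cldn5 and Kdr. RefSeq's table (assembly GRCr8) held the promoter of 6 of the 8 genes, Tagln and Pecam1 being the ones without, and the 250 bases before the start that the table uses are printed 5′ to 3′ on the gene's own strand. Capitals mark the CArG box, the site of serum response factor, searched with up to 1 G or C allowed in its core of A and T, and the MCAT box CATTCC, the site of TEAD factors, on either strand. They stand at chr1:241172504-241172753 on the minus strand (Acta2), chr11:79498575-79498824 on the minus strand (Mylk), chr8:76543416-76543665 on the minus strand (Tpm1), chr11:95718599-95718848 on the minus strand (Cldn5) and chr14:32571813-32572062 on the plus strand (Kdr). The start used is not the outermost one of every gene: all 250 bases shown for Mylk lie inside its annotated span, 36626 bases past the outermost start, as do 246 of those for Tpm1 and 32 of those for Kdr, so for Mylk they belong to an internal start.
Acta2: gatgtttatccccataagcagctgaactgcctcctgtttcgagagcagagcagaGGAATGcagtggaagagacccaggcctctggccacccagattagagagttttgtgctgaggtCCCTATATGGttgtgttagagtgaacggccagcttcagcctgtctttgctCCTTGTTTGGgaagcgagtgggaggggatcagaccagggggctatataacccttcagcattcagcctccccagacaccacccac
Mylk: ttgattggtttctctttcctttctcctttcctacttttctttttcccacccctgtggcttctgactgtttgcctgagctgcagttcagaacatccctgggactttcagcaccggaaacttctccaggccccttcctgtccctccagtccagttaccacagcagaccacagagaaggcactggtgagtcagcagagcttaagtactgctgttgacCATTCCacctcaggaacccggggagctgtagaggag
Tpm1: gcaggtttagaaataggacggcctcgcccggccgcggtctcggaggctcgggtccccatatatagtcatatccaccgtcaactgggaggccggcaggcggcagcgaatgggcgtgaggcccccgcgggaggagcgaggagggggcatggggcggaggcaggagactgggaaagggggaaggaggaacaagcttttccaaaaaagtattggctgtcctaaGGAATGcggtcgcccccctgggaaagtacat
Cldn5: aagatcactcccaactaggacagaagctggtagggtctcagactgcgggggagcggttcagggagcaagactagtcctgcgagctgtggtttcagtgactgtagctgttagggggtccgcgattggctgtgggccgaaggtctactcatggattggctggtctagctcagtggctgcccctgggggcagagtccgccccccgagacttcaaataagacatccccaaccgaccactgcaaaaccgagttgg
Kdr: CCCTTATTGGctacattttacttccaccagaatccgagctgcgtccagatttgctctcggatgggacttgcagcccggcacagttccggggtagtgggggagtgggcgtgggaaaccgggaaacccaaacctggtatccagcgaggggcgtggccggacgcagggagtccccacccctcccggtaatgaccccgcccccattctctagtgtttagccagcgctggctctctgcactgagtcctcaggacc

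Acta2 had 2 CArG boxes with 1 base outside the A and T core, CCCTATATGG from -134 to -125 and CCTTGTTTGG from -84 to -75 counted back from the start, and 1 MCAT box from -196 to -191. Tpm1 had an MCAT box from -31 to -26 and Mylk from -36 to -31. Kdr, an endothelial gene, also had a CArG box of the looser form, CCCTTATTGG, from -250 to -241. Cldn5 had neither. Of 33469 rat promoters of this length, 8.08% held the looser CArG box, 1.5% the strict one, which none of the 5 shown has, and 12.1% the MCAT box. The match of a motif is a description of these letters and not of binding.

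Among the genes measured above the filter in both tissues, Mylk, Acta2, Tpm1, Cldn5 and Kdr were lower in the oculomotor nucleus than in the cord over the 3 ages, and Flt1 did not pass the test. Mylk, in smooth muscle the kinase that starts contraction, differed most, 6.84-fold. The 4 tested Tpm1 probe sets were 3.96-fold, 1.77-fold, 1.5-fold and 1.25-fold lower. The endothelial genes Kdr and Cldn5 were 1.63-fold and 1.41-fold lower. By probe set, 9 of the 10 tested were lower and 0 higher in the oculomotor nucleus (limma, Benjamini-Hochberg adjusted p under 0.05), where 47.2% of all probe sets tested were called, 23.6% as lower. With a covariate for skeletal muscle genes 5 were called, those of Acta2 and 3 of the 4 Tpm1 probe sets being lost. The 5 include Tagln. The share of all probe sets called with this covariate is not given here, so a loss particular to these genes cannot be read from the count. The skeletal muscle genes were themselves lower in the oculomotor nucleus (3 of 3 over the filter in both tissues). For Acta1, 1 of them, this rests on the 3 cord arrays rich in it. The other cord arrays, at 253 to 503.5, overlapped with the oculomotor arrays, at 230.6 to 437.1. Since the covariate itself differs between the tissues, a call lost with it does not tell the source of the difference. Tagln is one of the 9 but passed the filter only through the cord (mean log2 signal of 6.53 in the oculomotor nucleus and 8.52 in the cord), so that it had to differ. Of the other 9 probe sets, over the filter in both tissues, 8 were lower and 0 higher, beside 22.6% and 22.9% of the 9018 probe sets of which the same holds. Their median log2 difference was -0.58, beside 0.01 for those 9018. The 8 genes, and the gene lists below, were chosen with earlier results of these data known. Their shares beside the background are thus a description and not a test of the set. In 6 of the 10, Tagln among them, the 9 oculomotor arrays did not overlap with the 9 cord arrays. The same held for 14.2% of all probe sets tested, a share not limited to those over the filter in both tissues. In tissue that mixes cell types, fewer vascular cells, less RNA per cell and RNA from other cell types cannot be told apart.

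**Figure D1:**
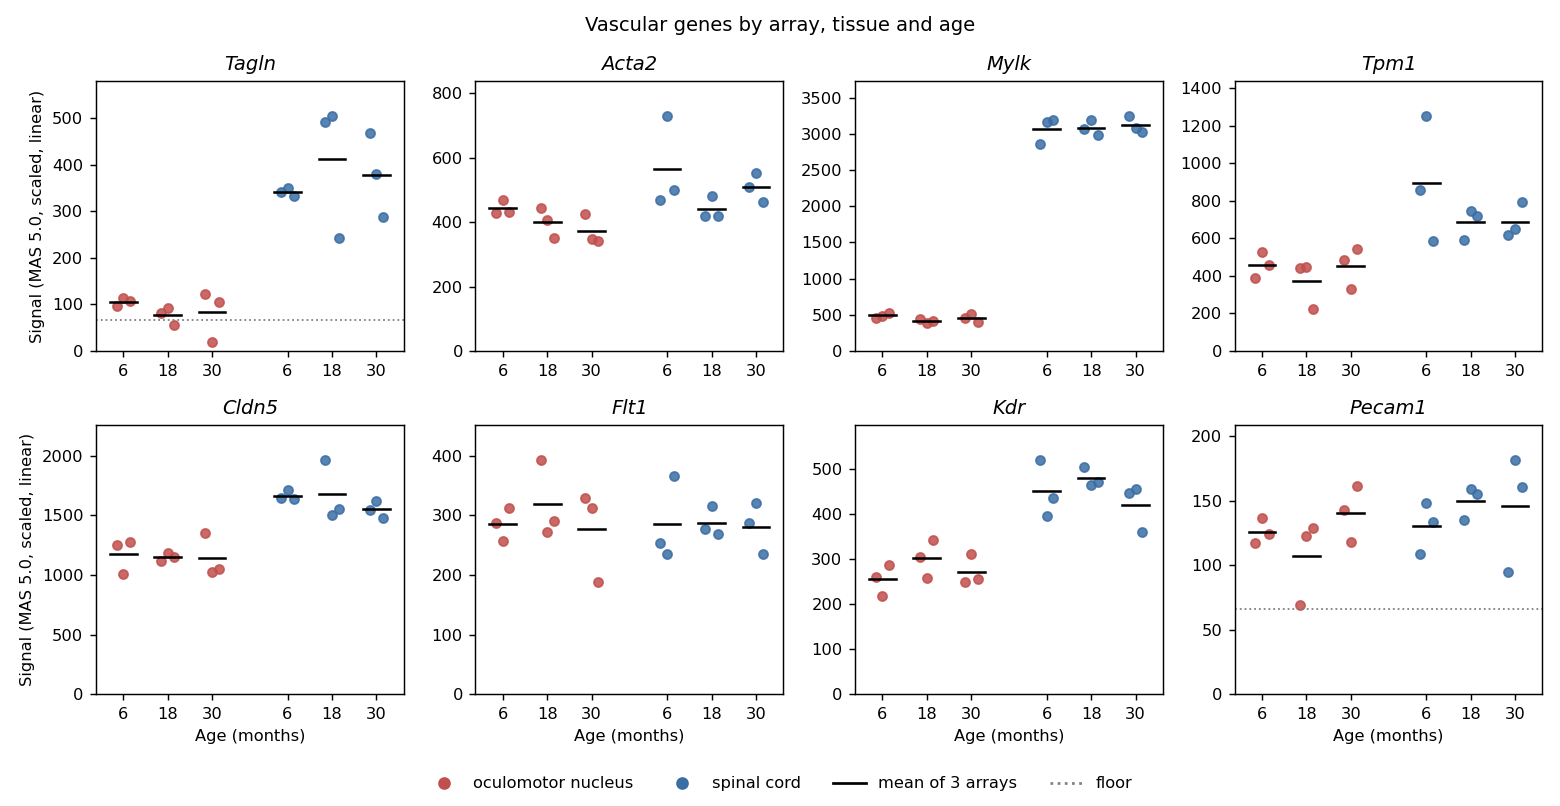
Signals of the 8 genes (linear scale, 1 probe set a gene, the one with the highest mean) on the 3 arrays of each group, with age in months on the horizontal axis, oculomotor nucleus left of spinal cord, and black bars for the means of 3 arrays. Mylk lies between 391 and 525 on the oculomotor arrays and between 2856 and 3242 on the cord arrays, whereas Flt1 and Pecam1 overlap between the tissues. The dotted line is the floor of 66.4.

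Mylk encodes myosin light chain kinase. Its probe set 1371541_at had signals of 461.5, 490 and 525.3 (6 months), 441.4, 390.7 and 409.1 (18 months) and 451.1, 505.2 and 406.5 (30 months) in the oculomotor nucleus. The cord arrays had 2856, 3166 and 3192 (6 months), 3072, 3190 and 2977 (18 months) and 3242, 3074 and 3030 (30 months). The lowest cord array was thus far above the highest oculomotor array, and the arrays of each tissue lay close together. The log2 difference, oculomotor nucleus minus cord, was -2.77 (SE 0.05, limma adjusted p = 5.3e-18, n = 9 and 9), with -2.64 at 6 months, -2.90 at 18 months and -2.78 at 30 months. Without the 4 arrays that deviate together it was -2.78, and the same without the 3 cord arrays rich in Acta1.

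Tagln encodes transgelin, a small actin-binding protein of contractile smooth muscle. Probe set 1367570_at had signals of 95.9, 112.9 and 107.2 (6 months), 82.1, 91.3 and 56.3 (18 months) and 123.2, 20 and 104.7 (30 months) in the oculomotor nucleus. In the cord it had 340.8, 349.5 and 331.4 (6 months), 492.1, 503.5 and 243 (18 months) and 467.2, 380.6 and 287.6 (30 months). Every cord array was above every oculomotor array, and 2 oculomotor arrays lay under the floor and were raised to it before the test. The log2 difference was -1.99, with the floor in place of those 2 values, and it is given as a description because the probe set passed the filter only through the cord. With the filter left off, so that this no longer applied, it was also -1.99 (limma adjusted p = 8.78e-07). It was -1.70, -2.31 and -1.97 at 6, 18 and 30 months. The 18- and 30-month cord arrays with the lowest signal were those of the set that deviates together, and without that set of 4 the difference was -2.19.

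Acta2, smooth muscle alpha-actin, differed least of the smooth muscle genes. On probe set 1370857_at the oculomotor arrays had 429.1, 468.8 and 432.6 (6 months), 444.8, 408.1 and 350.8 (18 months) and 426.2, 347.8 and 342.7 (30 months). The cord arrays had 469.6, 729.3 and 499.7 (6 months), 419.7, 482 and 420.6 (18 months) and 510.9, 552.4 and 461.9 (30 months). The tissues overlapped, and the highest signal of all was on the cord array with the most Acta1, the actin of skeletal muscle. The log2 difference over the ages was -0.31 (SE 0.09, limma adjusted p = 0.00693). At 30 months it was -0.45 (adjusted p = 0.0378), while at 6 months it was -0.33 (adjusted p = 0.122) and at 18 months -0.14 (adjusted p = 0.542). With the skeletal muscle genes as a covariate the difference was -0.14 and did not pass (adjusted p = 0.458), but without the 3 cord arrays rich in Acta1 it was -0.23 and passed (adjusted p = 0.0356).

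Tpm1 encodes alpha-tropomyosin, which lies along actin filaments and is spliced into smooth muscle, striated muscle and non-muscle forms. Its 4 tested probe sets were all lower in the oculomotor nucleus, by very different amounts: log2 differences of -1.98 (SE 0.17, limma adjusted p = 1.48e-08) for 1371241_x_at, -0.83 (SE 0.15, 0.000167) for 1368724_a_at, -0.58 (SE 0.13, 0.00129) for 1370288_a_at and -0.32 (SE 0.07, 0.00119) for 1370287_a_at. The spliced form that each of them reads is not given in the files or labels. Of the other probe sets of the gene, 1371240_at lay under the floor on all 18 arrays and has no measured level. It is annotated to the same sequence record as 1371241_x_at, the one with the largest difference. The dim 1370513_at had signals of 92.2 to 134.5 in the oculomotor nucleus and 55.9 to 139.8 in the cord. Its difference did not pass when the filter was left off (log2 0.16, adjusted p = 0.489).

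The probe set of Tpm1 with the largest difference, 1371241_x_at, had signals of 180.5, 240.8 and 168.9 (6 months), 247.5, 233 and 216 (18 months) and 255.8, 152.9 and 300.6 (30 months) in the oculomotor nucleus. The cord arrays had 1264, 1526 and 524.5 (6 months), 695.7, 1057 and 865.7 (18 months) and 685, 707.4 and 821 (30 months). The 3 highest cord signals were those of the 3 arrays rich in Acta1, and the other 6 cord arrays were still above every oculomotor array. Without those 3 arrays the log2 difference was -1.62 (adjusted p = 3e-07), and with the skeletal muscle genes as a covariate it was -1.29 (adjusted p = 1.79e-05). The other 3 tested probe sets passed without the 3 arrays (log2 -0.62, -0.37 and -0.31 for 1368724_a_at, 1370288_a_at and 1370287_a_at) and did not pass with the covariate (-0.39, -0.17 and -0.23; adjusted p = 0.162, 0.505 and 0.131). At 6 months alone, 8 of the 10 probe sets of the 8 genes were called with all arrays (26.1% of all probe sets tested). The count was lower without the 3 arrays rich in Acta1. That leaves 1 cord array at that age, assumed to vary like the other groups, so no number is given.

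**Figure D2:**
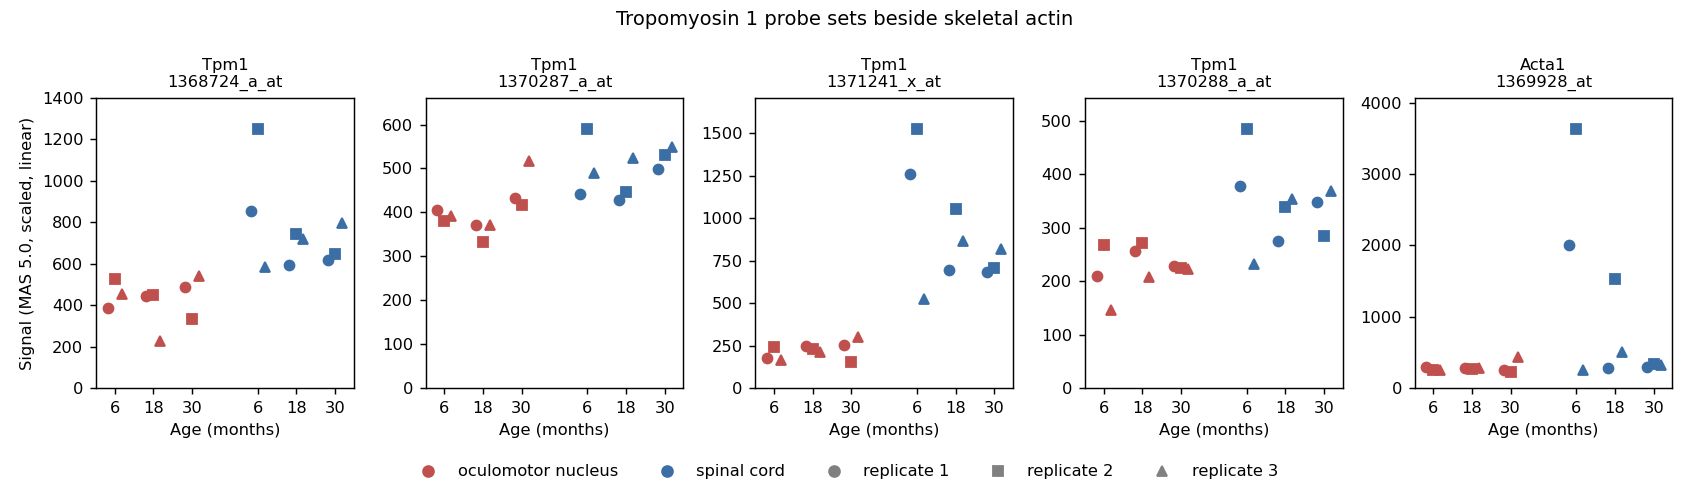
Signals (linear scale) of the 4 tested Tpm1 probe sets and of Acta1, the actin of skeletal muscle, on each array by age in months, oculomotor nucleus left of spinal cord, with the marker giving the replicate. Acta1 reaches 3631 on cord replicate 2 at 6 months, the array on which each of the 4 Tpm1 probe sets is also at its highest.

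Among the endothelial genes, Cldn5 makes the claudin that seals the tight junctions of brain endothelium. Probe set 1374104_at had signals of 1252, 1013 and 1277 (6 months), 1122, 1189 and 1149 (18 months) and 1353, 1022 and 1053 (30 months) in the oculomotor nucleus. The cord arrays had 1646, 1714 and 1638 (6 months), 1966, 1507 and 1557 (18 months) and 1547, 1622 and 1481 (30 months). The tissues did not overlap: the highest oculomotor array was below the lowest cord array. The log2 difference was -0.49 (SE 0.07, limma adjusted p = 8.12e-06), and Cldn5 passed at each age, with -0.50, -0.53 and -0.45 at 6, 18 and 30 months (adjusted p = 0.00395, 0.0025 and 0.0105). With the skeletal muscle covariate, which itself differs between the tissues, Cldn5 also passed (-0.59, limma adjusted p = 0.000434).

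Kdr, the main signalling receptor for VEGF, was read by 1367948_a_at. Its oculomotor signals were 261.8, 217.8 and 287.5 (6 months), 305.4, 259 and 342.4 (18 months) and 249.8, 312.9 and 256 (30 months). Its cord signals were 521.7, 396.1 and 436 (6 months), 505.1, 466.5 and 473.3 (18 months) and 448.1, 456 and 360.2 (30 months). All cord arrays were above all oculomotor arrays, with the cord array nearest to them at 30 months. The log2 difference was -0.71 (SE 0.09, limma adjusted p = 1.54e-06), and it passed at 6 months (-0.82, adjusted p = 0.000446), 18 months (-0.68, adjusted p = 0.00205) and 30 months (-0.63, adjusted p = 0.0051). It was -0.70 both without the 4 arrays that deviate together and without the 3 rich in Acta1.

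Flt1, the other VEGF receptor, overlapped between the tissues. On 1369087_at the oculomotor arrays had 287.4, 256.6 and 312.8 (6 months), 393.4, 272.3 and 291 (18 months) and 328.7, 313.2 and 188.8 (30 months). The cord arrays had 254.7, 235.6 and 366.9 (6 months), 277.8, 315.8 and 268.4 (18 months) and 287.2, 321.3 and 235.2 (30 months). The lowest array of either tissue was one of the 4 that deviate together. The log2 difference was 0.03 (95% interval -0.22 to 0.29, limma adjusted p = 0.835), so a difference of the size measured for Kdr lay outside the interval. The 2 dim probe sets of Flt1 had signals of 123.3 to 199.7 in the oculomotor nucleus and 140.9 to 204.3 in the cord (1370492_a_at), and of 60.3 to 144.6 and 35.2 to 183.8 (1377113_at). Neither differed past the test with the filter left off (log2 0.08 and -0.10, adjusted p = 0.523 and 0.843).

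Pecam1, the adhesion molecule CD31 of endothelial junctions, was dim in both tissues. Probe set 1371545_at had signals of 117.5, 136.2 and 124.5 (6 months), 68.9, 122.9 and 129 (18 months) and 142.4, 118.1 and 161 (30 months) in the oculomotor nucleus. The cord arrays had 108.5, 147.9 and 133.5 (6 months), 134.7, 158.8 and 155.4 (18 months) and 95, 181.6 and 160.6 (30 months). All 18 arrays were above the floor, the tissues overlapped, and the log2 difference of -0.19 (95% interval -0.51 to 0.13) did not pass with the filter left off (adjusted p = 0.388).

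**Figure D3:**
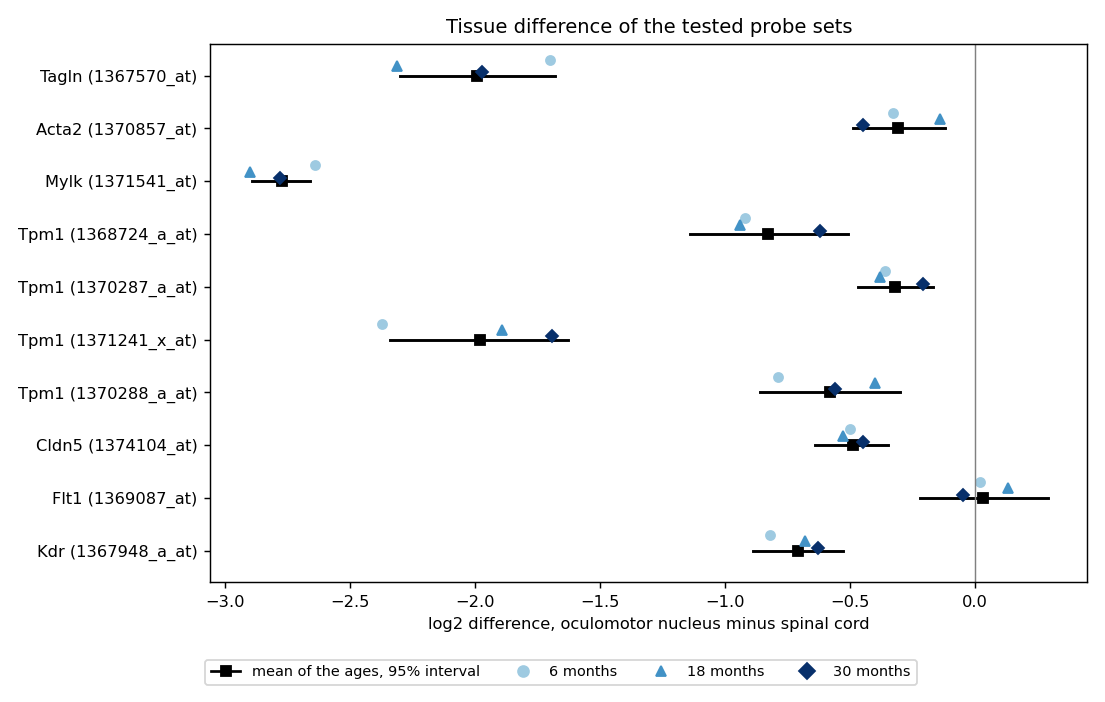
Log2 differences (horizontal axis, oculomotor nucleus minus spinal cord) of the 10 tested probe sets of 7 genes, with squares and bars for the mean of the ages and its 95% interval, and smaller points for each age. The interval of Flt1 spans 0 and those of the other 9 probe sets lie below it, with Mylk furthest at -2.77.

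At the single ages, 8 of the 10 probe sets were lower in the oculomotor nucleus at 6 months, where 13.4% of all probe sets were lower and 12.7% higher. That count was 5 without cord replicate 2 and 5 with the skeletal muscle covariate, settings for which the share of all probe sets is not given here. At 18 months 7 were lower, beside 13.9% lower and 12.3% higher of all (26.2% called), and at 30 months 6 were lower, beside 11.3% and 9.7% (21% called). None of the 10 was higher at any of the 3 ages. Without Tagln the counts were 7, 6 and 5 of 9 at 6, 18 and 30 months, beside 12.5%, 13% and 10.4% of the probe sets over the filter in both tissues. At each age 8 of the 10, Tagln among them, did not overlap between the tissues. Of all probe sets tested, 40.7% did not overlap at 6 months, 44.9% at 18 months and 33.5% at 30 months. Mylk, Cldn5, Kdr and 1371241_x_at of Tpm1 passed at all 3. For these 4 probe sets, and for Tagln, the 3 cord groups ranked above the 3 oculomotor groups, and the step from the lowest cord group to the highest oculomotor group was the one pair of neighbours without overlap. The tissue difference itself did not change with age past the test: 0 of the 10 were called for the change from 6 to 18 months or from 6 to 30 months, as for all probe sets (0%). Unadjusted, 0 of the 10 had p under 0.05 in either, and 5.07% and 5.47% of all probe sets did.

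Other genes of the vessel wall are counted here where their mean was over the filter in both tissues, since a gene that passed through the cord alone had to differ, and 22.6% of all probe sets so counted were lower in the oculomotor nucleus and 22.9% higher. Of 31 endothelial and barrier genes outside the 8, 23 were lower and 0 higher over the ages, with a median log2 difference of -0.35 (0.01 for all probe sets so counted). A further 3 passed through the cord alone. Cgnl1, a junction protein, had signals of 269 ± 20.5 in the oculomotor nucleus and 576 ± 69.6 in the cord (SD, n = 9 each), a log2 difference of -1.09 (SE 0.08). Cav1, the coat protein of caveolae, had 609 ± 70.8 and 1130 ± 133 (-0.89, SE 0.09), and Vwf, the clotting protein stored in endothelium, had 281 ± 66.3 and 561 ± 94.1 (-1.01, SE 0.10). Slc2a1, the glucose transporter of the barrier, differed less, with 1470 ± 93.7 and 1960 ± 151 (-0.41, SE 0.05). Of 6 other claudin and tight junction genes, 5 were lower, among them Tjp1 (-0.54), Ocln (-0.48), F11r (-0.46) and Cldn10 (-0.26), and 1 was higher, Cldn12 (0.29); Tjp1 and Ocln also stand in the list before.

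Of 11 genes of VEGF signalling, 4 were lower and 3 higher in the oculomotor nucleus (median log2 -0.11), and the share that was higher, 27.3%, was near the background of 22.9%. Vegfb, a ligand of FLT1, had 676 ± 130 in the oculomotor nucleus and 944 ± 113 in the cord (-0.50, SE 0.09). Pgf, another FLT1 ligand, had 150 ± 10.5 and 256 ± 34.7 and passed through the cord alone, so its difference is a description. Vegfa, the ligand of both receptors, had 760 ± 124 and 531 ± 86.5 (0.52, SE 0.11), so its signal was the higher one in the tissue where Kdr was the lower. Shb, an adaptor protein, had 408 ± 33.9 and 289 ± 41.9 (0.50, SE 0.08).

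Of 19 other smooth muscle genes, 10 were lower and 1 higher in the oculomotor nucleus (median log2 -0.22), beside 22.6% and 22.9% of all. Ppp1r14a, an inhibitor of the phosphatase that reverses what the Mylk product does, had 789 ± 78.5 in the oculomotor nucleus and 1580 ± 136 in the cord (adjusted p = 4.44e-10). The actin-binding proteins Cnn3 (-0.86, SE 0.06) and Cald1 (-0.96, SE 0.07) were lower as well. Synpo2, with 142 ± 17.4 in the oculomotor nucleus and 316 ± 39.3 in the cord, was 1 of 3 that passed through the cord alone. The gene that was higher was Srf, named after its value was seen, which encodes serum response factor, with 465 ± 27.5 and 396 ± 50.9 (0.24, adjusted p = 0.00778). Of 7 tropomyosin, actin, transgelin and myosin light chain kinase genes, 4 were lower and 1 higher. The actin Acta1 was among the lower ones, its high cord signals being those of the arrays rich in it. Tagln2 (-0.99), Tpm3 (-0.42) and Tpm4 (-0.29) were also lower, whereas Tagln3, the neuronal relative of transgelin, was higher (0.49, SE 0.07). Actg1, a cytoskeletal actin (0.02, adjusted p = 0.851), and Mylk2, a kinase of skeletal muscle (0.26, adjusted p = 0.177), did not pass.

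Pericytes are the mural cells of capillaries, and the basement membrane is the matrix they share with endothelium. Of 6 pericyte genes, 3 were lower and 1 higher in the oculomotor nucleus (median log2 -0.48), beside 22.6% and 22.9% of all. Art3 had 231 ± 23 in the oculomotor nucleus and 1040 ± 111 in the cord (-2.18, SE 0.07), Vtn, vitronectin, was at -1.06, Tgfbr1, a receptor for TGF-beta, at -0.67, and Rgs4, a regulator of G protein signalling that neurons also make, was higher at 0.80. The pericyte markers Notch3, with 284 ± 47.3 in the oculomotor nucleus and 274 ± 34.3 in the cord (0.04, adjusted p = 0.728), and Rgs5, with 625 ± 113 and 766 ± 157 (-0.29, adjusted p = 0.0553), did not pass. Of 13 genes listed for the basement membrane, 8 were lower and 1 higher (median log2 -0.56). The list also holds matrix genes outside it, such as Mgp (-1.35), which was among the lower. Also lower were Fn1, fibronectin (-1.19), and the laminin chains Lamb2 (-1.04) and Lamc1 (-0.69). Sparc (0.35, named after its value was seen) was the higher one.

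**Figure D4:**
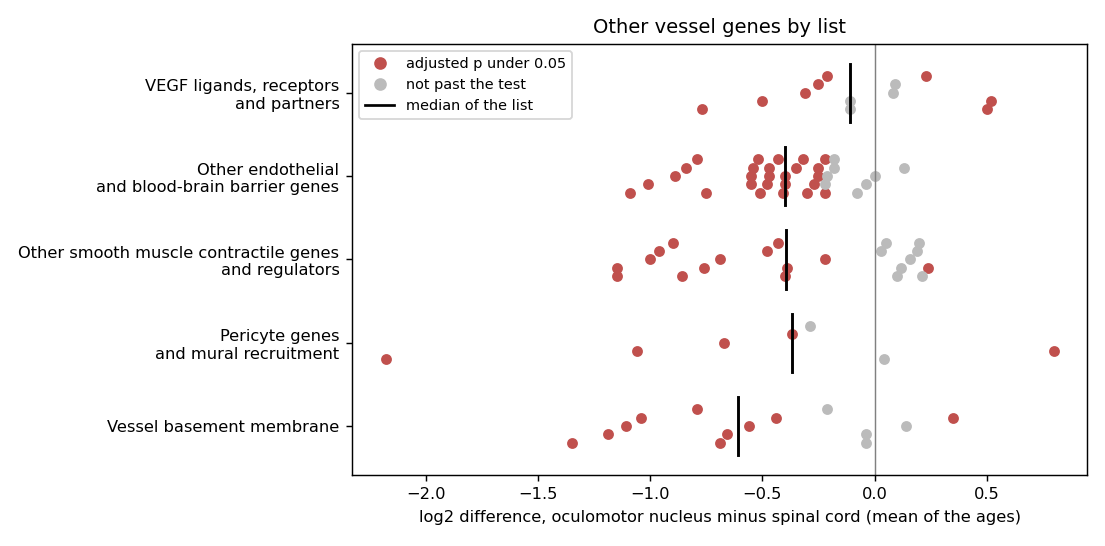
Log2 differences (horizontal axis, oculomotor nucleus minus spinal cord, mean of the ages) of all other vessel genes tested, those that passed through the cord alone included, by list, with red points for an adjusted p under 0.05, grey points for the rest and a black bar for the median of each list. The medians lie between -0.61 for the basement membrane and -0.11 for VEGF signalling.

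Markers of other cell types moved with the tissue as well. Of the genes over the filter in both tissues, 14 of 14 of meninges and fibroblasts were lower in the oculomotor nucleus, as were 10 of 10 of microglia and leukocytes, 3 of 3 of blood and 3 of 3 of skeletal muscle, beside 22.6% of all probe sets, and of 2 choroid plexus genes 1 was higher and 1 lower. The summed signal of the 22 meningeal genes on the array, of 23 listed, was 5105 to 7483 on oculomotor arrays and 12820 to 18340 on cord arrays. For 14 of 16 microglial genes it was 8319 to 13550 and 12900 to 22520, for 4 of 12 blood genes 4938 to 10300 and 10510 to 21770, and for 29 of 30 skeletal muscle genes 4880 to 5985 and 5725 to 20170. For 8 of 10 choroid plexus genes it was 2689 to 7125 and 3815 to 4771. Of the skeletal muscle genes, 11 were under the floor on every oculomotor array and 2 on every cord array, and 0 of the meningeal, blood and microglial genes were. The part of meninges, blood, microglia and choroid plexus in the vascular differences was not tested.

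No age difference of the 10 tested probe sets passed the test. In each tissue, 18 months against 6, 30 against 6 and 30 against 18 gave 0 of the 10 tested probe sets past the test (limma, adjusted p under 0.05). In the oculomotor nucleus 0%, 0.211% and 0.0105% of all probe sets were called in these 3 comparisons, and in the cord 0.728%, 0.221% and 0.0105%, so the share among the vascular genes was near the background. The log2 differences of the 10 lay between -0.41 and 0.28 for 18 against 6 months and between -0.26 and 0.23 for 30 against 6 months in the oculomotor nucleus. In the cord they lay between -0.34 and 0.20 and between -0.45 and 0.12. Groups of 3 arrays did not overlap for 3, 2 and 1 of the 10 probe sets in the oculomotor nucleus, beside 14.5%, 13.9% and 8.81% of all, and for 0, 1 and 1 in the cord, beside 13.6%, 13.1% and 6.46%. Unadjusted, 3 of the 60 comparisons had p under 0.05, while 2.14% to 10.7% of all probe sets did in the single comparisons.

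Those 3, all of tested probe sets, were in the smooth muscle genes. Mylk in the oculomotor nucleus had a mean signal of 413.7 ± 25.7 at 18 months and 492.3 ± 32 at 6 months (SD over 3 arrays), without overlap. Its log2 difference was -0.25 (95% interval -0.45 to -0.05, limma adjusted p = 1). Tpm1 on 1370287_a_at had 455.8 ± 52.7 at 30 months and 358.1 ± 22.6 at 18 months in the oculomotor nucleus, also without overlap, a difference of 0.34 (0.08 to 0.60, limma adjusted p = 0.976). Acta2 in the cord had 440.8 ± 35.7 at 18 months and 566.2 ± 142 at 6 months, which overlapped, a difference of -0.34 (-0.65 to -0.02, limma adjusted p = 0.452), and the array of 729.3 at 6 months was the one richest in Acta1. In the cord, Mylk was at 3071 ± 187, 3080 ± 107 and 3116 ± 112 at 6, 18 and 30 months. With the filter left off, no age difference of the dim probe sets passed either. Among them the endothelial Flt1 on 1370492_a_at had 145.7 ± 5.07 at 18 months and 187.4 ± 23.4 at 6 months in the cord, without overlap. Its difference was -0.36 (95% interval -0.64 to -0.07, limma unadjusted p = 0.018, adjusted p = 0.359).

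The widths of the intervals differed between the genes. For Cldn5 the 95% interval of the log2 difference between 30 and 6 months was -0.30 to 0.20 in the oculomotor nucleus and -0.36 to 0.15 in the cord. For Kdr it was -0.22 to 0.41 and -0.41 to 0.22, and for Mylk -0.32 to 0.08 and -0.17 to 0.22. It was wider for Tagln, at -0.69 to 0.40 and -0.42 to 0.67, and for Flt1, at -0.52 to 0.36 and -0.45 to 0.43. For 1371241_x_at of Tpm1 in the cord it was -1.07 to 0.17, in the comparison where the 6-month arrays include 2 rich in Acta1. On simulated data, the test of 30 against 6 months in the cord recovered 35.8% of probe sets changed by 0.5 on the log2 scale. Of those changed by 1 it recovered 95.5%. The simulated noise was independent between arrays, without the deviation that some real arrays share. These rates are for probe sets drawn at random from all tested ones and not for the vascular genes.

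**Figure D5:**
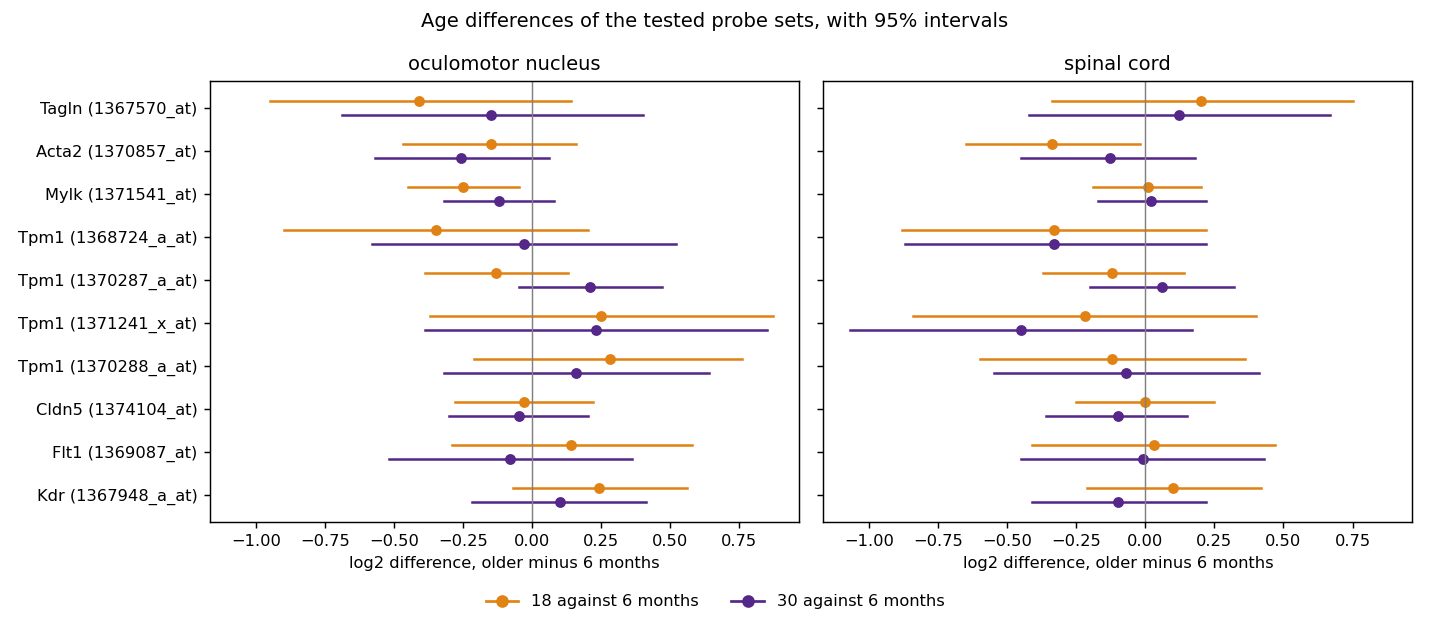
Log2 differences (horizontal axis, older age minus 6 months) of the 10 tested probe sets in the oculomotor nucleus (left) and the spinal cord (right), with points for 18 against 6 months and 30 against 6 months and bars for 95% intervals. All intervals but 2 span 0, the exceptions being Mylk in the oculomotor nucleus (-0.45 to -0.05) and Acta2 in the cord (-0.65 to -0.02), both at 18 months.

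None of the tested genes of VEGF signalling, endothelium, smooth muscle, pericytes, basement membrane, tropomyosins and actins or tight junctions was called in the 6 comparisons of ages or the 2 comparisons of the change between tissues, and the medians of the lists lay between -0.25 and 0.16. In the oculomotor nucleus the summed signal of the meningeal genes was 6757 to 7483 (6 months), 5792 to 6192 (18 months) and 5105 to 5627 (30 months). Over the same ages the microglial genes summed to 8319 to 9441, then 10600 to 11830, then 11460 to 13550. In the cord the skeletal muscle genes summed to 6694 to 20170, then 5725 to 10830, then 5931 to 6894. The part of these cells in the age values of the vascular genes was not tested.

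Within a tissue, no pair of the 8 genes had a correlation that passed the adjusted test. Over the 28 pairs of genes and both tissues, 56 correlations of log2 signals over 9 arrays were computed, and 0 had an adjusted p under 0.05 by an exact permutation test, while 5 had an unadjusted p under 0.05. The largest Pearson's r was that of Tagln and Kdr in the oculomotor nucleus, at -0.84 (exact permutation p = 0.00401, adjusted p = 0.112) with Spearman's rho of -0.86 (exact permutation p = 0.00473, adjusted p = 0.132). By rho, Tpm1 and Kdr in the same tissue had a slightly larger one (-0.87, exact permutation p = 0.00451, adjusted p = 0.132), with Pearson's r of -0.80. Without the 2 arrays farthest from the median of Tagln r was -0.64, and over deviations from the age means it was -0.78. In the cord the same pair had r of 0.33 (exact permutation p = 0.391).

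The genes most like each member, by the mean of the Pearson correlations over the 9 oculomotor and the 9 cord arrays among 6957 genes, held none of the 8. They were Slc9a2 for Mylk (0.87), Prelid1 for Tagln (0.82), Slc25a1 for Acta2 (0.85), Sbds for Tpm1 (0.86), Wsb2 for Cldn5 (0.73), Ctps2 for Kdr (0.79) and Pom121 for Flt1 (0.91). The next were Ubash3b and Clec2l for Mylk, Ndufc1 and Cplx2 for Tagln, Hgsnat and Mrps12 for Acta2, Tspan31 and Ccnc for Tpm1, Bin1 and Ndufc1 for Cldn5, Arfgap1 and Tsc2 for Kdr and Zfp180 and Ypel3 for Flt1. All these correlations share the same 18 arrays, the 4 that deviate together included, and are a description with no test.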

How the data were processed

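The table holds intensities, 1 value a probe set on each array, which the authors made with Affymetrix Microarray Suite 5.0, per the series' design text. That text also states that each RNA sample combined 4 animals. From the values, arrays had been scaled: 2% trimmed means were 500.083 to 500.101. They were brought to 1 common trimmed mean, raised to a floor at the pooled 20th percentile (66.4) and logged. After removal of 57 controls, 9482 of 15923 probe sets had a mean log2 signal over the pooled 40th percentile and were tested.

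The model held 6 group means over the 18 arrays (limma 3.58.1, R 4.3.3, mean-variance trend, 12 residual degrees of freedom), with 2-sided tests and Benjamini-Hochberg adjustment over all tested probe sets. Levels are scaled signals with their SD. A list's gene stands at its probe set with the highest mean.

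The text names all probe sets of the 8 genes and the 3 genes most like each member. Of each list it names up to 4 called members with the smallest p, with exceptions stated. Acta1 and other markers are named beside these. The members and lists were chosen with earlier results of these data known. Alternatives were quantile normalization, median centring, no floor, a pseudocount of 16, no filter, no trend, a fit per tissue, no overlap with a ratio over 1.70 in place of the study's difference calls, the replicate number or the 4 deviating arrays as a block, a skeletal muscle covariate, and arrays left out. Leaving out the 4 deviating arrays was chosen after seeing the data. Deviations from the group means of same-numbered oculomotor and cord arrays at 30 months correlated at 0.12, 0.23 and 0.50. The last pair is of 2 deviating arrays. At 6 and 18 months such pairs were at -0.06 to 0.09. Cord replicates 3 at 18 and 30 months, both deviating arrays of different ages, were at 0.45. Whether the numbers pair the tissues cannot be told from these values.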

Additional observations from a re-analysis of the deposited data

How the results depend on the processing

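Over the ages, the count of 9 probe sets lower in the oculomotor nucleus was within 1.5 times under 29 of 30 alternatives, and 9 whichever single array was left out. It was 8 without a floor, where Tagln was too dim to be tested, and 5 with a covariate for skeletal muscle genes; the cause was not tested. At 6 months the count of 8 was 5 with that covariate and 5 to 9 leaving out 1 array, with 5 without cord replicate 2. Without the 3 cord arrays richest in Acta1 it was lower. There 1 cord array of that age remains, assumed to vary like the other groups, so no number is given. At 18 and 30 months leaving out 1 array gave 5 to 7 and 4 to 7. By no overlap and a ratio of means over 1.70, as near to the study's rule as the table allows, the counts were 5, 4 and 3 at 6, 18 and 30 months. Tagln was among them each time. Non-overlap alone held for 40.7%, 44.9% and 33.5% of all probe sets tested. The shares of all probe sets under this rule and the other alternatives are not given here, so these counts are a description. Tagln stayed between -2.19 and -1.90, Mylk between -2.80 and -2.73, Kdr between -0.75 and -0.67 and Cldn5 between -0.59 and -0.45 under the alternatives that gave a value, the last 3 past the test in each. Flt1, at 0.03, had no stable sign and never passed: it was -0.20 with the covariate, -0.07 without the 3 arrays rich in Acta1, -0.05 with the 4 deviating arrays as a block, and -0.02 to 0.12 leaving out 1 array. The counts for ages, and for the difference between tissues in the change with age, stayed at 0 under all alternatives run. With the replicate number as a block within each tissue the count over the ages was 9, and 0 for each age comparison. At 30 months, a block of the replicate number shared by the tissues, chosen after seeing the data, gave 6 and changed no call. Between the other groups deviations of same-numbered arrays did not all correlate over 0.1 (-0.26 to 0.50 over all 27 pairs, 5 of them over 0.1). Under the scaling alternatives the median difference of all probe sets was at most 0.04. With 3 arrays a group, age differences of 0.5 on the log2 scale would often be missed.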
